A study of Mus musculus with 10 samples.

Results

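The genes described here are classical markers and brakes of the cell cycle that are followed as readouts of cellular senescence: the cyclin-dependent kinase inhibitors Cdkn1a, Cdkn1b, Cdkn2a, Cdkn2b and Cdkn2c, the p53 antagonist Mdm2, the nuclear lamina gene Lmnb1 and the D-type cyclin Ccnd1. They were chosen by name, as every probe set whose platform annotation gives exactly 1 gene symbol equal to a listed gene, with no filter on brightness. This gave 15 probe sets of 8 genes, out of 45037 probe sets and 18193 genes named by 1 symbol. The list also holds Trp53 and Gdf15, which were not analysed here. The kidneys came from male C57BL/6 mice aged 30 months, 5 fed a control diet and 5 a calorie-restricted diet, with 1 mouse per Affymetrix array and 10 arrays in all. The series calls the restriction long-term; its degree, its length and the feeding state at collection were not stated in the labels. The comparison asks which of these genes differ in signal in the old kidney after calorie restriction.

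Cells leave the cycle when kinase inhibitors block the cyclin-dependent kinases that phosphorylate the retinoblastoma protein. Inhibitors of the INK4 family (Cdkn2a, Cdkn2b, Cdkn2c) bind the kinases Cdk4 and Cdk6, the partners of cyclin D1, while those of the Cip/Kip family (Cdkn1a, Cdkn1b) bind several cyclin-kinase complexes. The transcription factor p53 induces Cdkn1a after DNA damage and also induces Mdm2, the ubiquitin ligase that degrades p53. In senescent cells Cdkn2a and Cdkn1a are typically raised and the lamin Lmnb1 is typically lost, and Cdkn2a is a known marker of kidney ageing.

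Median signals of the 10 arrays were 115 to 136, no 2 arrays were identical, and Spearman's rho between arrays was 0.922 to 0.951 across probe sets. The kidney markers Umod, Slc12a1, Slc12a3, Aqp2, Slc34a1, Lrp2 and Slc22a6 were bright on every array, all at least at log2 11.68. RNA and labelling quality was followed per array as the log2 signal ratio between 3' and 5' probe sets for Actb and Gapdh, called the RNA-quality ratio below; a higher value means shorter transcripts or less complete labelling. It averaged 1.67 ± 0.46 under calorie restriction and 1.05 ± 0.26 under the control diet (SD, n = 5, 2-sided exact permutation p = 0.0476). Calorie-restricted replicates 1, 2 and 3 had values of 2.21, 2.01 and 1.75, and no control exceeded 1.39. Replicates 4 and 5 under restriction had 1.24 and 1.16, like the controls, whose lowest value was 0.76. Leaving out 1 array of replicates 1 to 3 gave a p of 0.0714 to 0.0794. Each member is therefore also given among replicates 4 and 5 of each diet and with this ratio as a covariate. That subset leaves out controls 1 to 3, with ratios of 0.91, 0.76 and 0.94, and keeps controls 4 and 5, with 1.39 and 1.25. Its values, for the members and for the lists below, therefore also depend on which controls were kept.

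No member passed the threshold of 0.05 on the adjusted p: 0 of 15 probe sets did so in limma, against 0.637% of all 45037 probe sets (287 in number, 126 higher and 161 lower in calorie restriction, or 66 and 336 after median centring). At an unadjusted p under 0.05 there were 5 of 15, with 3 lower and 2 higher in calorie restriction, where the share over all probe sets was 17.1%. The 2 diets overlapped in all 15 probe sets, while 4.44% of all probe sets had groups that did not overlap. The median difference over the 15 was -0.16 on the log2 scale, calorie restricted minus control, and 0.049 over all probe sets. The smallest adjusted p belonged to Cdkn1a (0.0545) and Mdm2 (0.0698). Among probe sets at or above the median brightness, where 6.09% passed, 1 of the 10 member probe sets tested passed, again for Mdm2.

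**Figure D1:**
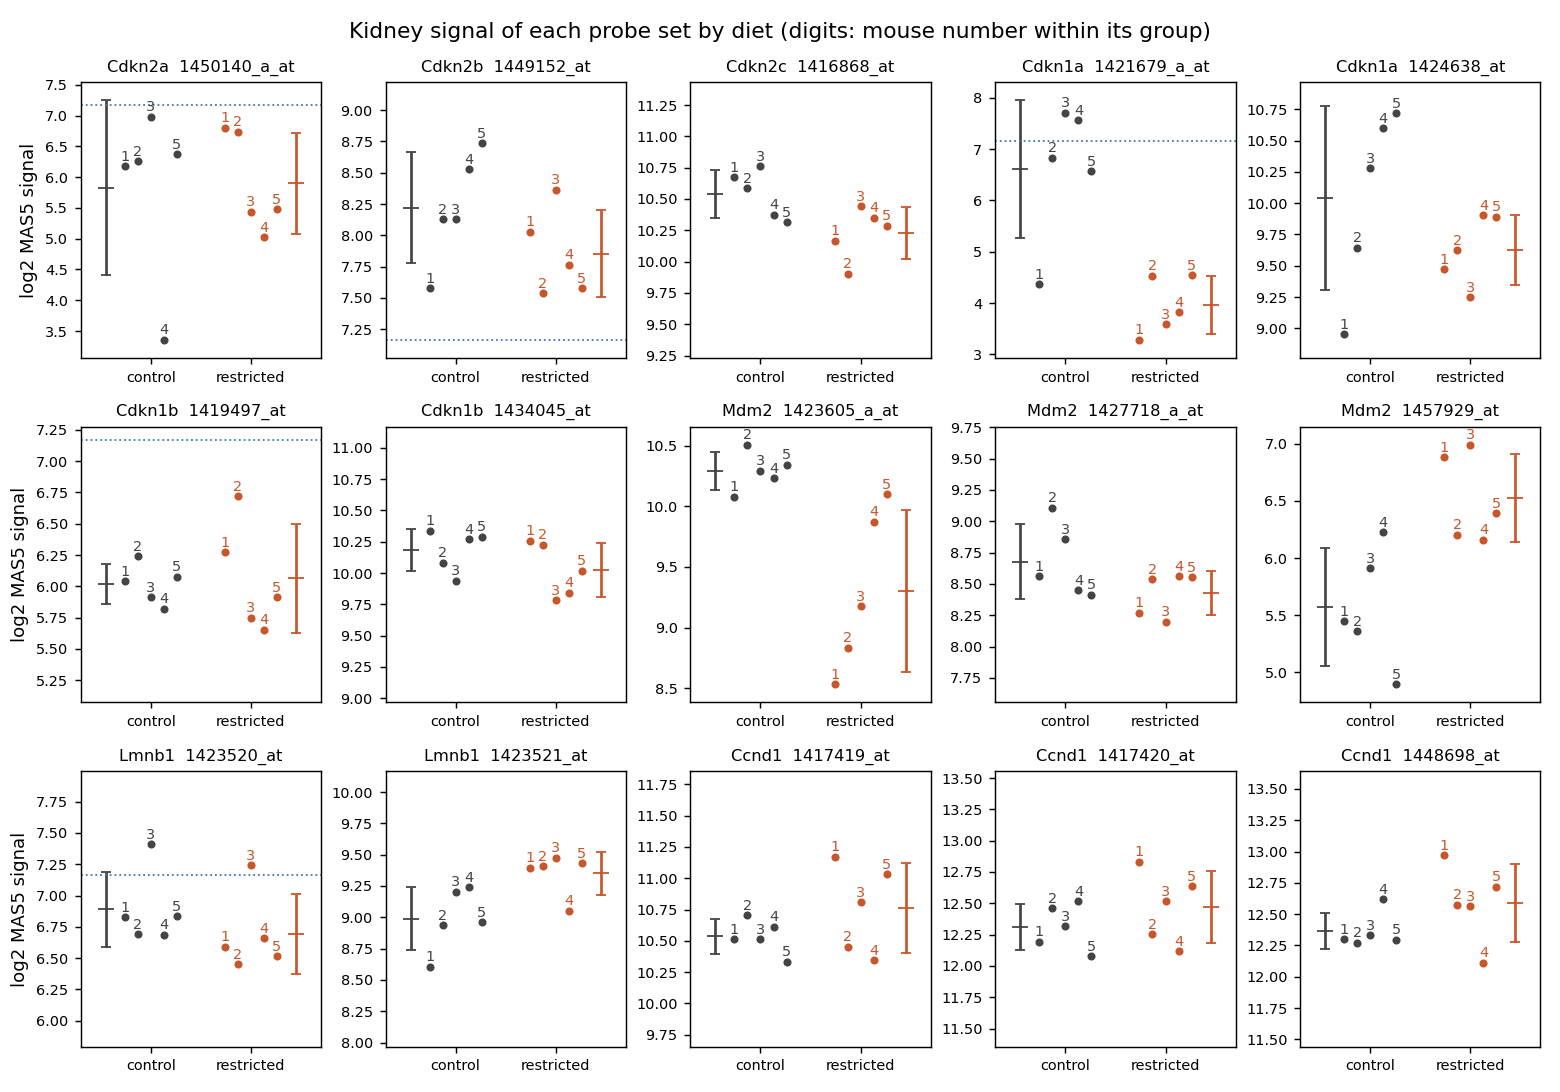
Log2 MAS5 signal (y axis) of each of the 15 probe sets on the 5 control and 5 calorie-restricted arrays, where digits give the mouse number within its diet and the bars show the mean ± SD. The dotted line at log2 7.17 is the level used as a guide to background, and the diets overlap in every panel.

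Background was judged from 80 probe sets of olfactory and vomeronasal receptors, most of which a kidney is not known to use. Their mean log2 signals had a median of 4.88 and a 95th percentile of 7.17, and 54.8% of all probe sets lay at or below the latter. By that guide 5 of the 15 probe sets were near background in both diets: the only one for Cdkn2a, and 1 each for Cdkn1a, Cdkn1b, Mdm2 and Lmnb1. The other probe sets of those last 4 genes, and all those of Cdkn2b, Cdkn2c and Ccnd1, were above the 95th percentile of the receptors on 10 of 10 arrays. Probe sets differ in how strongly they bind, so this guide is approximate.

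Cdkn1a encodes p21, the inhibitor that p53 induces to halt the cycle. Its probe set 1421679_a_at read log2 4.37, 6.84, 7.71, 7.57 and 6.57 on control arrays 1 to 5 and 3.28, 4.53, 3.59, 3.82 and 4.54 on calorie-restricted arrays 1 to 5. Control 1 lay among the calorie-restricted arrays, and the other 4 controls lay well above all 5 of these. The difference was -2.66 ± 0.59 (SE, 95% interval -3.93 to -1.38, limma adjusted p = 0.0545). In replicates 4 and 5 alone it was -2.89 ± 0.68 (SE, limma adjusted p = 0.238), and with the RNA-quality covariate -2.66 ± 0.84 (SE, limma adjusted p = 0.350). Only controls 3 and 4 exceeded the receptor guide on their own array, so the calorie-restricted level is not set apart from background and the size of the difference is uncertain. It was -1.27 on the log2(signal + 50) scale. Without control 1 the probe set passed (difference -3.22, adjusted p = 0.00755), as it did without calorie-restricted replicate 5 (-2.81, 0.0410), after median centring (-2.76, 0.0480) and in a robust fit (adjusted p = 0.0487). These were 4 of the 19 alternative settings in which it was tested. Among the others the limma adjusted p was 0.201 without trend and 0.104 with a replicate block. It reached 0.130 with a single array left out, namely control 2.

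The brighter probe set of Cdkn1a, 1424638_at, showed a smaller difference in the same direction. Control arrays 1 to 5 read log2 8.96, 9.64, 10.28, 10.60 and 10.72, and calorie-restricted arrays read 9.47, 9.62, 9.25, 9.90 and 9.89. Controls 3, 4 and 5 stood above all calorie-restricted arrays and control 1 below them all, as the lowest control in both Cdkn1a probe sets. The mean signal was 1154 ± 500.4 units in control kidney and 802 ± 152 under calorie restriction (SD, n = 5). The log2 difference was -0.41 ± 0.28 (95% interval -1.01 to 0.19, adjusted p = 0.489), -0.76 in replicates 4 and 5 alone and -0.52 with the covariate. Spread was wider among the controls, with an SD of 0.74 against 0.28 on the log2 scale.

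RefSeq (GRCm38.p6) gives windows around the start sites of 6 members, all but Lmnb1 and Ccnd1, which were not used here. The windows reach from 250 bases before to 50 bases after each start site, 9 windows in all. The Cdkn1a and Mdm2 windows are printed because both genes are textbook targets of p53 and had the smallest adjusted p of the members. Cdkn1a has a distal and a proximal start site 2790 bases apart.
Cdkn1a distal start, chr17:29090729-29091028, + strand: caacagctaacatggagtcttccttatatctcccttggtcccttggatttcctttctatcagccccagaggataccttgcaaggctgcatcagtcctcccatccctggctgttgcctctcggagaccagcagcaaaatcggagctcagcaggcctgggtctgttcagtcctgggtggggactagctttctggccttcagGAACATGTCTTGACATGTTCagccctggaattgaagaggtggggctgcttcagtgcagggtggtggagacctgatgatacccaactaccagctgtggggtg
Cdkn1a proximal start, chr17:29093519-29093818, + strand: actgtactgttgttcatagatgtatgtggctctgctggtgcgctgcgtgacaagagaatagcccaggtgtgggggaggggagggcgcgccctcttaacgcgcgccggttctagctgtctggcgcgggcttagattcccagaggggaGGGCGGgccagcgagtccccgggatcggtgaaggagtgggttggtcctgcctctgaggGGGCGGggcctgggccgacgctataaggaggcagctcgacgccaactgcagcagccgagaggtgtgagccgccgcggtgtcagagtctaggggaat
Mdm2 start, chr10:117710709-117711008, - strand: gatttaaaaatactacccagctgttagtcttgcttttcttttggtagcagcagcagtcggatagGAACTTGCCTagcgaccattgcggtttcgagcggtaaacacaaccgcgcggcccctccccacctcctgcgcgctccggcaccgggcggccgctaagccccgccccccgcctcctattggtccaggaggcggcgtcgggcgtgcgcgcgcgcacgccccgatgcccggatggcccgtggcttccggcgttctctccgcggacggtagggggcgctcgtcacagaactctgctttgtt
Capitals mark, in the distal Cdkn1a window, a run of 20 bases that matches 2 abutting p53 decamer motifs at 19 positions and begins 51 bases before the start site. In the proximal Cdkn1a window they mark the GC box GGGCGG, and in the Mdm2 window a single p53 decamer motif that begins 186 bases before the start. Both strands were searched. A run with at least 19 matches was found in 0.0883% of 32851 RefSeq windows of this length (29 in number), a p53 decamer motif in 8.36% and GGGCGG in 35.7%. Of the 9 member windows, 1 held the 20-base run, 2 a decamer motif and 7 GGGCGG. The distal Cdkn1a window holds a second decamer motif that overlaps none of the capitals. A match of letters describes the sequence and no binding was measured.

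The sister inhibitor Cdkn1b, which encodes p27 and holds resting cells out of the cycle, showed little difference by diet. Its bright probe set 1434045_at read log2 10.34, 10.08, 9.94, 10.27 and 10.29 in control and 10.26, 10.22, 9.78, 9.84 and 10.02 in calorie-restricted kidney. The values intermingled, with 2 calorie-restricted arrays below all controls. The difference was -0.16 ± 0.12 (95% interval -0.41 to 0.099, adjusted p = 0.545), and -0.35 both in replicates 4 and 5 alone and, to within rounding, with the covariate (-0.34). The other probe set, 1419497_at, was near background at means of log2 6.02 and 6.06, a difference of 0.044 ± 0.31 whose sign changed under quantile normalization (-0.063) and median centring (-0.054).

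The INK4 inhibitor Cdkn2a was not measurable above background in either diet. This locus encodes both p16, which inhibits Cdk4 and Cdk6, and p19Arf, which restrains Mdm2. Whether its single probe set, 1450140_a_at, reads 1 or both transcripts was not tested. Control arrays 1 to 5 read log2 6.18, 6.26, 6.98, 3.36 and 6.37, and calorie-restricted arrays read 6.81, 6.74, 5.44, 5.02 and 5.48. Control 4 was far below the rest, and 0 of 10 arrays exceeded their own receptor guide. The difference was 0.068 ± 0.62 with a 95% interval of -1.27 to 1.40 (adjusted p = 0.971), so changes of more than 2-fold in either direction lie within it. Its sign depended on the scaling (-0.048 after quantile normalization, -0.030 after median centring) and on control 4, without which it was -0.55.

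Cdkn2b, the neighbour of Cdkn2a on chromosome 4, encodes p15, an INK4 inhibitor induced by TGF-beta. Its probe set 1449152_at read log2 7.58, 8.13, 8.13, 8.53 and 8.73 on control arrays and 8.03, 7.54, 8.36, 7.76 and 7.58 on calorie-restricted arrays. Controls 4 and 5 were the highest arrays of all and control 1 one of the lowest, the same 3 controls that were extreme in the bright Cdkn1a probe set. The difference was -0.37 ± 0.23 (95% interval -0.85 to 0.12, adjusted p = 0.443). It was -0.96 in replicates 4 and 5 alone and -0.67 with the covariate. Without control 1 it was -0.53 and without control 5 it was -0.24, neither past the threshold.

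Cdkn2c encodes p18, an INK4 inhibitor better known from differentiation than from senescence. Probe set 1416868_at read log2 10.67, 10.58, 10.76, 10.38 and 10.31 in control and 10.17, 9.90, 10.44, 10.35 and 10.29 in calorie-restricted kidney. Calorie-restricted replicates 1, 2 and 5 lay below every control and the other 2 lay among them. The mean signal was 1500.2 ± 197 against 1211 ± 167 units (SD, n = 5), a log2 difference of -0.31 ± 0.12 (95% interval -0.57 to -0.052, unadjusted p = 0.0222, limma adjusted p = 0.204). The difference was -0.026 in replicates 4 and 5 alone and -0.11 with the covariate. Controls 4 and 5 were the lowest controls, and calorie-restricted replicate 3, with a ratio of 1.75, was the highest calorie-restricted array. Why the difference was smaller in these settings was not tested.

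The 3 probe sets of Mdm2 did not move together. On 1423605_a_at, the brightest, control arrays 1 to 5 read log2 10.08, 10.51, 10.29, 10.23 and 10.34 and calorie-restricted arrays read 8.53, 8.84, 9.17, 9.87 and 10.10. Calorie-restricted replicates 1, 2 and 3 were well below all controls, and replicate 5 reached the lowest control. The mean signal was 1259 ± 137 against 688 ± 315 units (SD, n = 5). The log2 difference was -0.99 ± 0.25 (95% interval -1.52 to -0.46, unadjusted p = 0.00127, adjusted p = 0.0698). Those 3 arrays are the ones with the highest RNA-quality ratios, and the difference was -0.30 in replicates 4 and 5 alone and -0.28 with the covariate. Why it was smaller in these settings was not tested. Among probe sets at or above the median brightness the same difference passed (adjusted p = 0.0357), as it did among the top 30% (0.0270) and without calorie-restricted replicate 4 (-1.13, 0.0463) or 5 (-1.19, 0.0242). These were 4 of 21 alternative settings. Without calorie-restricted replicate 1, 2 or 3 the difference was -0.80, -0.87 or -0.96 (limma adjusted p = 0.143, 0.163 and 0.153). The limma adjusted p was 0.217 without trend and 0.121 with a replicate block.

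Mdm2 probe set 1457929_at stood the other way and was near background. It read log2 5.45, 5.36, 5.91, 6.23 and 4.90 in control and 6.88, 6.20, 6.99, 6.16 and 6.39 in calorie-restricted kidney. Calorie-restricted replicates 1, 3 and 5 lay above all controls and replicates 2 and 4 lay just below control 4, the highest control. The difference was 0.96 ± 0.34 (95% interval 0.22 to 1.69, unadjusted p = 0.0144, adjusted p = 0.169), 0.71 in replicates 4 and 5 alone and 0.69 with the covariate. The third, 1427718_a_at, had means of log2 8.68 ± 0.30 in control kidney and 8.42 ± 0.18 under calorie restriction (SD, n = 5), a difference of -0.25 ± 0.16 (adjusted p = 0.442). That difference was 0.13 in replicates 4 and 5 alone and -0.0057 with the covariate. No single direction can therefore be given for Mdm2.

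**Figure D2:**
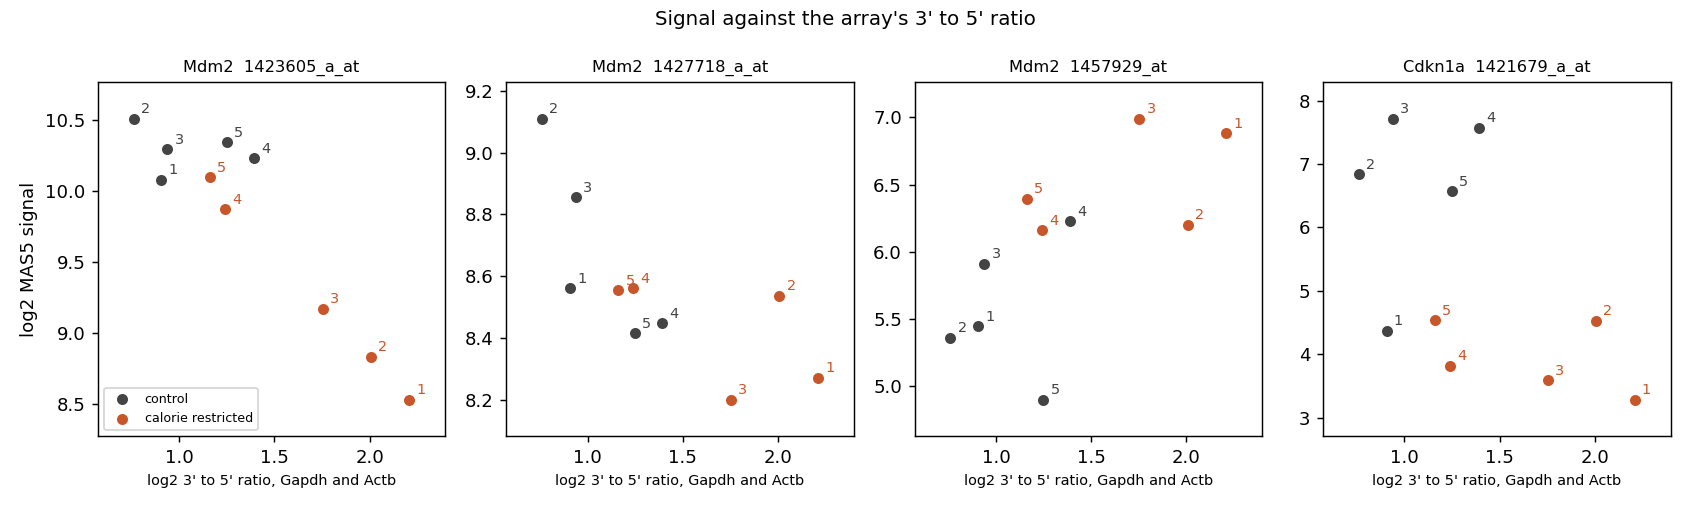
Log2 MAS5 signal of the 3 Mdm2 probe sets and of Cdkn1a 1421679_a_at (y axis) against the RNA-quality ratio of each array (x axis, log2), 1 point per array labelled with its mouse number. Calorie-restricted mice 1, 2 and 3 combine ratios of 1.75 to 2.21 with the lowest signals of Mdm2 1423605_a_at. In Cdkn1a calorie-restricted mice 4 and 5, with ratios of 1.24 and 1.16, read 3.82 and 4.54. All 5 calorie-restricted values of Cdkn1a lie under the receptor guide of 7.17. The part of RNA quality in either gene's difference was not tested.

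Lmnb1, which encodes lamin B1 of the inner nuclear membrane, did not differ past the threshold in either direction. Its bright probe set 1423521_at read log2 8.61, 8.93, 9.20, 9.24 and 8.96 in control and 9.40, 9.41, 9.48, 9.05 and 9.43 in calorie-restricted kidney. On this probe set 4 calorie-restricted arrays lay above every control, and replicate 4 lay among the controls. The mean signal was 514 ± 86.9 against 657 ± 72.4 units (SD, n = 5), a difference of 0.36 ± 0.14 (95% interval 0.069 to 0.66, unadjusted p = 0.0192, adjusted p = 0.190). It was 0.14 in replicates 4 and 5 alone and 0.21 with the covariate. The second probe set, 1423520_at, was near background at log2 6.89 and 6.69 and had a difference of -0.20 ± 0.25 (adjusted p = 0.738).

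Ccnd1 encodes cyclin D1, the partner of Cdk4 and Cdk6 that INK4 proteins oppose, and its 3 probe sets were all bright. Probe set 1448698_at read log2 12.30, 12.27, 12.33, 12.62 and 12.30 in control and 12.97, 12.57, 12.57, 12.11 and 12.72 in calorie-restricted kidney. Calorie-restricted replicates 1 and 5 were above all controls and replicate 4 below them all. The differences of 1417419_at, 1417420_at and 1448698_at were 0.23 ± 0.15, 0.16 ± 0.13 and 0.22 ± 0.13 (adjusted p = 0.472, 0.598 and 0.428). Their 95% intervals ran from at lowest -0.13 to at highest 0.55. In all 3 probe sets replicate 1 was the highest calorie-restricted array and replicate 4 the lowest. In replicates 4 and 5 alone the differences were 0.21, 0.078 and -0.044, and with the covariate 0.17, 0.052 and -0.027.

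**Figure D3:**
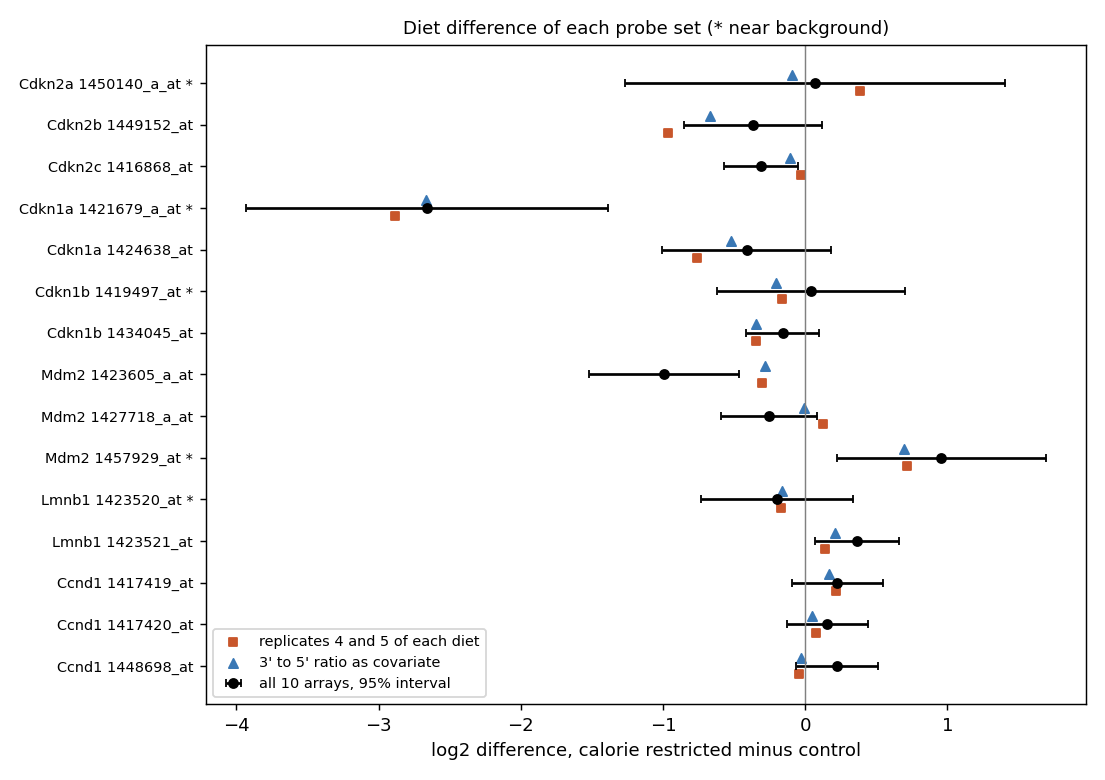
Log2 difference, calorie restricted minus control (x axis), of each of the 15 probe sets (y axis), with the 95% interval from limma over all 10 arrays, beside the value in replicates 4 and 5 of each diet and the value with the RNA-quality ratio as covariate. Mdm2 1423605_a_at moves from -0.99 to -0.30 and -0.28, and Cdkn1a 1421679_a_at is at -2.66 over all arrays, then -2.89 and -2.66, with its calorie-restricted values at background level; asterisks mark the 5 probe sets near background.

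Genes around these inhibitors were taken from 7 lists, each gene by its brightest probe set. Of 118 measured genes 0 passed the threshold in either direction, where 0.874% of all named genes did (limma). At an unadjusted p under 0.05 there were 34 of 118, or 28.8%, against 20.4% of all named genes. The median difference over all named genes was 0.019.

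Polycomb repressors, which silence the Cdkn2a locus in young cells, were lower in 8 of 9 cases, with a median of -0.33 and 5 at an unadjusted p under 0.05, all lower. That median was -0.17 in replicates 4 and 5 alone and -0.18 with the covariate, with 7 of 9 below 0 in each. After quantile normalization it was -0.27, with 6 of 9 below 0. Cbx7 came closest to the threshold, with 1387 ± 168 signal units in control kidney and 952 ± 123 under calorie restriction (SD, n = 5). Its difference of -0.54 ± 0.12 (adjusted p = 0.0504) was -0.59 in replicates 4 and 5 alone and -0.53 with the covariate. Of its 2 other probe sets 1 had the same sign. It passed in 8 of 21 alternative settings, among them both brightness filters and array weights. Eed, a core subunit of the methylating complex, differed by -0.49 ± 0.13 (adjusted p = 0.0729), and by -0.25 in replicates 4 and 5 alone.

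Among p53 target genes 10 of 21 had differences above 0 and 11 below, with a median of -0.054, which was -0.036 in replicates 4 and 5 alone and 0.031 with the covariate. At an unadjusted p under 0.05 there were 6 lower and 1 higher. The sestrin Sesn1 differed by -0.54 ± 0.13 (limma adjusted p = 0.0623), with every calorie-restricted array below every control, and by -0.43 in replicates 4 and 5 alone. Of its 3 other probe sets 2 had the same sign. Pmaip1, which encodes the cell death protein Noxa, differed by -0.73 ± 0.18 (adjusted p = 0.0629), again without overlap, and by -1.04 in replicates 4 and 5 alone. For the p53 regulators 6 of 9 were lower, with a median of -0.13 (-0.16 in replicates 4 and 5 alone, -0.20 with the covariate). The damage kinase Atm differed by -0.46 ± 0.12 (adjusted p = 0.0820, -0.22 in replicates 4 and 5 alone). The ubiquitin ligase Rchy1 differed by -0.51 ± 0.17 (adjusted p = 0.147), but by 0.079 in replicates 4 and 5 alone.

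Cyclins, kinases and retinoblastoma family members of the G1 phase had a median of -0.13 (-0.051 in replicates 4 and 5 alone, -0.085 with the covariate), with 12 of 16 below 0 and 4 lower and 1 higher at an unadjusted p under 0.05. The pocket protein Rbl2 differed by -0.50 ± 0.16 (adjusted p = 0.124, -0.049 in replicates 4 and 5 alone). Cdkn1c, the remaining Cip/Kip inhibitor, which encodes p57, differed by -0.33 ± 0.12 (adjusted p = 0.166) and by -0.54 in replicates 4 and 5 alone. Proliferation genes, of which 17 of 26 were near background, had a median of 0.097 (0.052 in replicates 4 and 5 alone, 0.0080 with the covariate). The replication helicase subunit Mcm5 differed by 0.63 ± 0.17 (adjusted p = 0.0853), with 1 of 2 other probe sets of the same sign. The replication clamp Pcna differed by -0.46 ± 0.15 (adjusted p = 0.139), and by 0.058 in replicates 4 and 5 alone.

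Genes of the senescence secretory list, read here in whole kidney, had the lowest median but one, -0.30, with 20 of 25 below 0. At an unadjusted p under 0.05 there were 7 lower and 2 higher. The median was -0.39 in replicates 4 and 5 alone, with 19 of 25 below 0, and -0.24 with the covariate, with 16 of 25 below 0. Ccl2, a chemokine for monocytes, read 234 ± 98.1 units in control kidney and 100.4 ± 20.8 under calorie restriction (SD, n = 5) without overlap, a difference of -1.17 ± 0.27 (adjusted p = 0.0602, -1.38 in replicates 4 and 5 alone). All 5 calorie-restricted values of Ccl2, log2 6.00 to 6.84, lay under the receptor guide of 7.17, so the size of its difference is uncertain; it was -0.87 on the log2(signal + 50) scale. The binding protein Igfbp4 stood the other way (0.35 ± 0.094, limma adjusted p = 0.0865) and was 0.092 after quantile normalization. Of its 5 other probe sets 3 had the same sign. Nuclear lamina and envelope genes other than Lmnb1 had a median of -0.10 (-0.063 in replicates 4 and 5 alone, -0.057 with the covariate), with 9 of 12 below 0. Tmpo, which encodes lamina-associated polypeptides, differed by -0.47 ± 0.13 (adjusted p = 0.0884) and the inner membrane protein Lemd3 by -0.44 ± 0.13 (adjusted p = 0.100). In replicates 4 and 5 alone the differences were -0.20 for Tmpo and -0.22 for Lemd3, and with the covariate -0.24 and -0.23. Of the other probe sets, 3 of 5 for Tmpo and 0 of 2 for Lemd3 had the same sign.

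**Figure D4:**
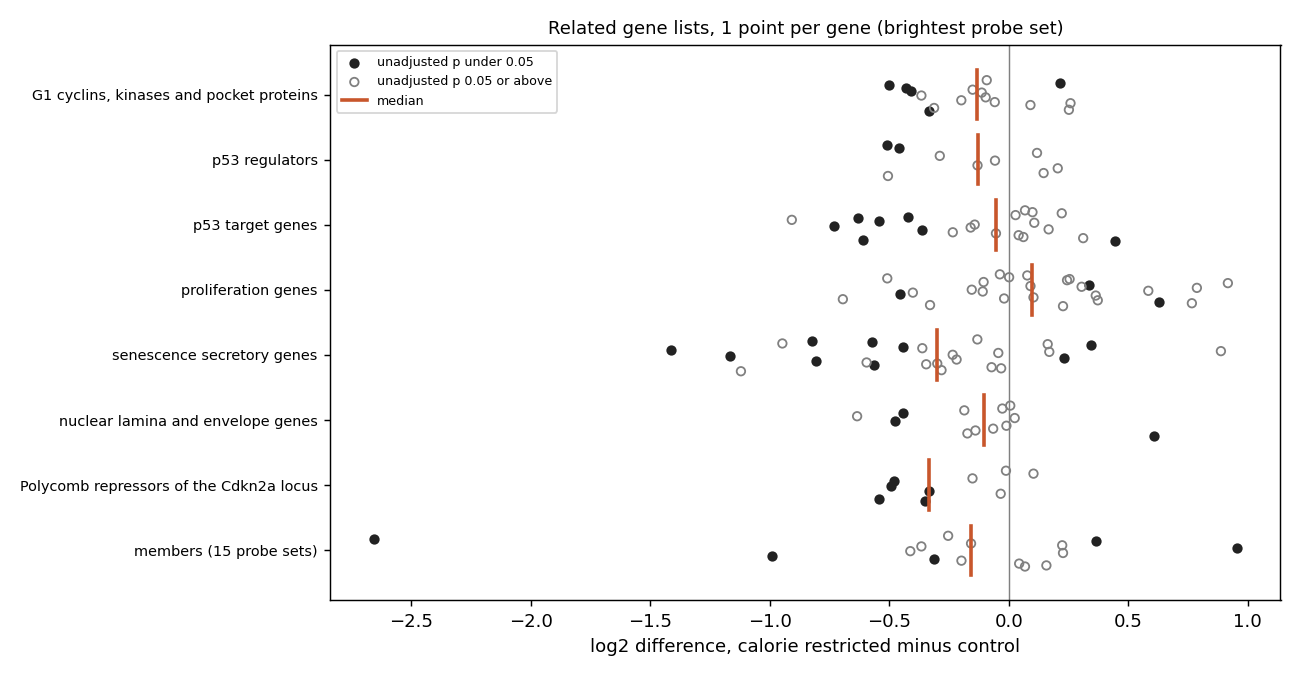
Log2 difference, calorie restricted minus control (x axis), of each gene in the 7 related lists and of the 15 member probe sets (y axis), with filled points for an unadjusted p under 0.05 and a bar at each median. Medians run from -0.33 for Polycomb repressors to 0.097 for proliferation genes, and no point passed the adjusted threshold.

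In whole kidney, fewer cells of a type and less RNA per cell cannot be told apart, and markers of several cell types also differed. By their brightest probe sets, the 7 kidney tubule markers named above all stood higher under calorie restriction, with a median of 0.29. Of these 4 had an unadjusted p under 0.05 and 0 passed the threshold. The other probe set of Slc12a1 and that of Slc12a3 had the opposite sign, and those of Umod, Lrp2 and Slc22a6 had the same sign. Summed per array, the 7 brightest probe sets reached 82120 to 96030 units in control mice and 100445 to 117116 in calorie-restricted mice, without overlap. Replicates 4 and 5 alone gave a median of 0.30 and the covariate fit 0.22, but it was 0.077 after quantile normalization, where 3 of the 7 were below 0. Macrophage markers were lower in 11 of 12 cases with a median of -0.67, and 2 passed the threshold, both lower. At an unadjusted p under 0.05 there were 8 of 12, all lower. Over all named genes 0.874% passed the threshold and 20.4% had an unadjusted p under 0.05 (limma). The macrophage median was -0.71 in replicates 4 and 5 alone, -0.58 with the covariate and -0.67 after quantile normalization. The summed signal of the macrophage markers ran from 21631 to 38033 units on control and from 15724 to 25397 on calorie-restricted arrays. Stromal markers had a median of -0.28 with 2 of 10 past the threshold, both lower, and summed to 15149 to 23161 against 13192 to 16723 units. At an unadjusted p under 0.05 there were 4 of 10, all lower. The stromal median was -0.55 in replicates 4 and 5 alone, -0.26 with the covariate and -0.25 after quantile normalization. Markers of B and plasma cells were lower in 6 of 7 cases (median -0.44, 7603 to 21182 against 2009 to 15976 units), with 0 past the threshold and 2 near background. Jchain alone averaged 11215 units in control and 5487 under calorie restriction, so these sums largely follow that gene. For T cells 5 of 7 markers were near background (median 0.083, 502 to 1037 against 812 to 1007 units), and for endothelium the median was -0.15 (6547 to 7894 against 6358 to 7484 units). None of these markers had a signal under 1. Their part in the differences of Cdkn1a, Ccl2 and the other genes above was not tested.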

How the data were processed

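Per the submitters' processing notes the signals come from MAS5 in Affymetrix Expression Console, whose versions are not stated. The deposited table gives 1 intensity per probe set and array on a linear scale. Per the labels' protocols each array used 5 ug of total RNA. With the lowest and highest 2% left out, every deposited array had a mean of 500.003, so MAS5 had scaled them alike. Detection calls were not used here.

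Of 45101 probe sets 64 controls were left out. Annotation named 34958 by 1 gene symbol and 932 by several, and left 9211 unnamed. Signals under 1 became 1 (922 values, 0 among members) before log2. Diets were compared with limma (version 3.58.1, R 4.3.3; lmFit, eBayes with trend, 2-sided) on all 45037 remaining probe sets, with Benjamini-Hochberg adjustment and a threshold of 0.05. The fit was tested on simulated data. P-values reflect variation among these mice only, and 5 arrays per diet limit precision.

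Members, lists, settings and naming rules were chosen with earlier results of these data known. Members were given with every probe set; in a list up to 4 genes past the threshold were named, or 2 with the smallest p where none passed. Settings tried were quantile normalization, median centring, log2(signal + 50), 2 brightness filters, eBayes without trend or robust, array weights, a replicate block, the RNA-quality covariate, replicates 4 and 5 alone, and each array left out.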

Additional observations from a re-analysis of the deposited data

Results flagged for a closer look

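Of 30 groups of 5 arrays (15 probe sets in 2 diets), 5 held an array far from the other 4, with a gap to the nearest of over 0.71 of the group's range; chance alone flags about 1 in 20 groups. Control 4 read log2 3.36 on the Cdkn2a probe set, where the other controls read at least 6.18. On Lmnb1 1423520_at, near background, replicate 3 was the highest array of both diets, at log2 7.41 in control and 7.24 in calorie restriction. On Lmnb1 1423521_at calorie-restricted replicate 4 read log2 9.05, below the other 4. Control 4 read log2 12.62 on Ccnd1 1448698_at, above the other controls, which read 12.27 to 12.33.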

How the results depend on the processing

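Over up to 21 alternatives, 13 of 15 member probe sets never passed the threshold and 11 never changed sign. The exceptions to the former were Cdkn1a 1421679_a_at and Mdm2 1423605_a_at. The brightness filters dropped some members, so the 5 near background were tested in 19 alternatives and Cdkn2b in 20. The number of member probe sets that passed was 1 after median centring, among probe sets at or above the median brightness, in the top 30% and in the robust fit, and 0 to 2 with 1 array left out (1, 1 and 2 without control 1 and calorie-restricted replicates 4 and 5, and 0 otherwise). The related lists had 3, 9, 12 and 3 genes past it in those 4 settings, 1 with array weights and 0 to 8 with 1 array left out (2, 1 and 8 without control 1 and calorie-restricted replicates 4 and 5, and 0 otherwise). Over all probe sets the count was 148 after quantile normalization, 1371 and 1554 with the brightness filters, 552 in the robust fit, 2 without trend, 4 with the covariate, 46 in replicates 4 and 5 alone and 2 to 1188 with 1 array left out (2 without control 4, 1188 without calorie-restricted replicate 5). With the replicate block it was 10, and 0 members passed. Over all probe sets, arrays that share a number did not deviate together (correlations -0.033 to -0.002, and 0 of 5 controls correlated best with their own number). These correlations cannot tell whether such arrays share more than a number.

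Signs changed for Cdkn2a 1450140_a_at after quantile normalization (-0.048), median centring (-0.030), log2(signal + 50) (-0.048), with array weights (-0.0029), the covariate (-0.092) and with 1 array left out (-0.55 to 0.36). For Cdkn1b 1419497_at they changed after quantile normalization (-0.063), median centring (-0.054), with the covariate (-0.21), in replicates 4 and 5 alone (-0.16) and with 1 array left out (-0.12 to 0.15). In replicates 4 and 5 alone Mdm2 1427718_a_at (0.13), Ccnd1 1448698_at (-0.044), Rchy1 (0.079) and Pcna (0.058) changed sign, and Ccnd1 1448698_at did so with the covariate (-0.027). The diet difference in the RNA-quality ratio was 0.49 to 0.75 with 1 array left out. Beyond the filters, which tested fewer probe sets, and the arrays left out, the cause of these changes was not tested. Low signal limits the 5 probe sets near background.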
